A study of Homo sapiens with 6 samples.

Results

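Circular RNAs (circRNAs) made from the genes of histone-modifying enzymes and of Polycomb proteins were described in Gemcitabine resistant and parental pancreatic cancer cells. Members were all listed circRNAs whose host gene symbol began with KDM, KMT, SETD, NSD, EHMT, PRDM, PRMT, ASXL, EZH, SUV, HDAC, SIRT, NCOA or KAT plus a digit. Host genes named MLL or MLL with a number, ASH1L, WHSC1, JARID2, SUZ12, EED, DOT1L, EP300 or CREBBP were taken as well. This gave 159 of the 7746 listed circRNAs, from 49 of 3348 host genes, with 1887 of 66978 junction reads. The symbol decided membership, so 8 of the 49 genes are not known mainly as histone-modifying enzymes or Polycomb genes. Among them were SETD3, NSDHL, PRDM4, NCOA4, NCOA6, SIRT3 and SIRT5.

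RNA was sequenced in 6 libraries, 3 of PANC-1-GR cells and 3 of PANC-1 cells. PANC-1 is a human cell line of pancreatic duct carcinoma. Selection for 40 weeks in Gemcitabine, from 0.1 up to 200 μg/ml, gave PANC-1-GR, which was then kept with 10 μg/ml added at intervals. It is thus a single selected line, and drug exposure and resistance cannot be told apart. Whether separate cultures were used for the libraries of each line is not stated, and p-values below therefore reflect only how these libraries vary, which may be technical. A figure legend of the paper calls the lines paired, but the sample titles name no pairs and the main test used none. The libraries held 9222 to 13689 junction reads in PANC-1-GR and 9429 to 11964 in PANC-1. Of 27 cell type markers only KRT19, a keratin of duct epithelium, had a listed junction, with 1, 0 and 0 reads in PANC-1-GR and 0, 0 and 2 in PANC-1, so the labelled cell type could hardly be checked in junction reads. Lists for fibroblasts, blood, endothelium and acinar and endocrine pancreas had no listed junction.

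Histones carry methyl and acetyl groups that are written by methyltransferases and acetyltransferases and removed by demethylases and deacetylases. Polycomb repressive complex 2 (PRC2) methylates histone H3 at lysine 27, a mark of silenced genes, while ASXL proteins are partners of a deubiquitinase that acts on histone H2A. Genes of this machinery are often mutated in pancreatic and other cancers. Many of them are long genes with many exons, and their transcripts can be spliced backwards, so that an exon's end is joined to its own start or to that of an exon before it, which gives a circle. A read over that back-splice junction was counted as 1 read of the circle. Levels below are scaled to 10000 junction reads of each library and given as mean ± SD over 3 libraries. Log2 fold changes are PANC-1-GR minus PANC-1, with an approximate standard error (SE). The SE was not estimated by the fit itself. It was derived as the absolute log2 fold change divided by the square root of the F statistic of the edgeR test below. Reads are given in the order of replicates 1, 2 and 3 of each line. Linear mRNA was not analysed here, and in bulk RNA fewer cells with a circle and less of it per cell cannot be told apart.

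Taken as a whole, the members made up 2.82% of all junction reads in PANC-1-GR and 2.81% in PANC-1. They had 281, 301 and 268 junction reads per 10000 in the PANC-1-GR libraries, against 283, 277 and 284 in the PANC-1 libraries. The means were 283 ± 16.8 in PANC-1-GR and 281 ± 4.16 in PANC-1 (SD, n = 3 each), and the lines overlapped. The ratio of reads summed over each line was 1.004, with a 95% Clopper-Pearson interval from 0.916 to 1.10 that covers counting error only, as all such intervals below do. No p is given for this sum, since the members were chosen together. The difference was smaller than the spread between libraries.

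The quasi-likelihood test of edgeR was used for single members and was fitted over all circRNAs or host genes with 3 or more reads in 3 or more libraries. A member was called where it changed 2-fold or more with an unadjusted p of at most 0.05. Of the 159 circRNAs, 26 from 19 genes entered the test, and they held 67.2% of the members' reads. None of the 26 was called, where 4.23% of all 969 tested circRNAs were. Summed over all listed junctions of a host gene, 20 of the 49 genes entered the test with 88.7% of the reads, and none was called, where 3.66% of all 1093 tested host genes were. None of the 26 circRNAs and none of the 20 genes had an unadjusted p of at most 0.05, against 5.06% of all tested circRNAs and 5.76% of all tested genes. The smallest adjusted p in the edgeR quasi-likelihood test (Benjamini-Hochberg over all features tested) was 0.978 for a circRNA and 0.872 for a gene. DESeq2, the edgeR exact test and limma-voom also gave 0 member circRNAs and 0 member genes at an unadjusted p of at most 0.05 and 0 at an adjusted p under 0.05, a level that 0 of all tested circRNAs and 0.0915% of all tested genes reached in the edgeR quasi-likelihood test. The libraries of the lines did not overlap for 3 of 26 circRNAs, against 10.8% of all tested circRNAs, and for 4 of 20 genes, against 10.6% of all tested genes. The median log2 fold change was -0.08 over the 26 circRNAs and -0.04 over all 969. It was 0.15 over the 20 genes and 0.00 over all 1093.

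**Figure D1:**
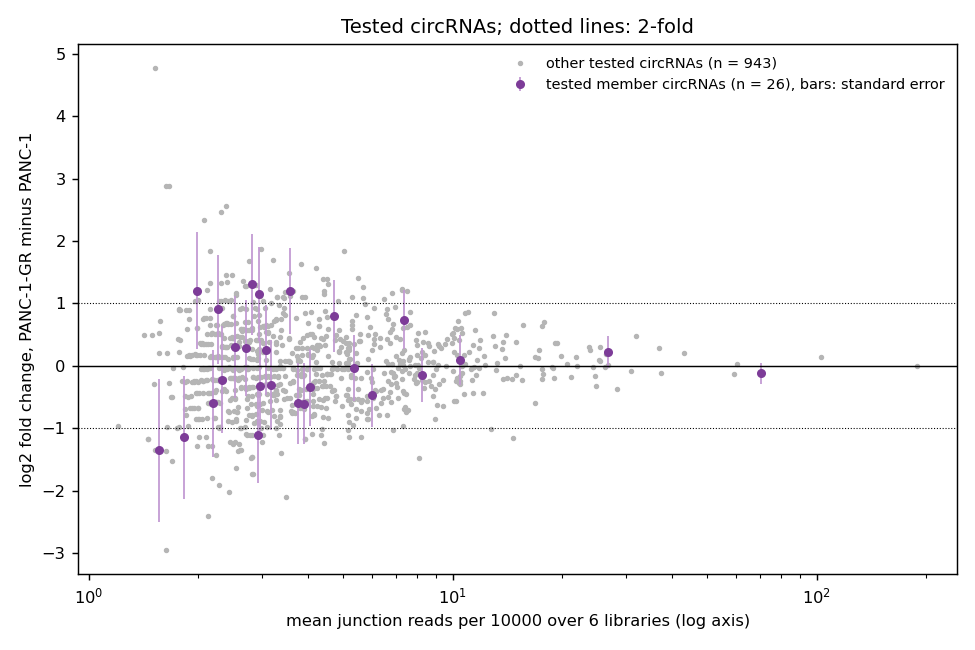
The mean level of each tested circRNA over the 6 libraries (junction reads per 10000, log axis) is plotted against its log2 fold change, PANC-1-GR minus PANC-1, with the 26 tested members in purple and their standard errors as bars. The members lay between -1.36 and 1.31, and 12 of the 26 lay above 0.

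The reads were spread very unevenly over the members. ASXL1, which encodes a scaffold protein of the Polycomb-associated deubiquitinase, held 31.3% of all member reads by itself. ASXL1, SETD3, ASH1L and KDM1A together held 52.2%. At the other end, 20 of the 49 genes had fewer than 10 reads over the 6 libraries and 77 of the 159 circRNAs had 2 to 4. The levels of 19 of the 20 tested genes are plotted by library.

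**Figure D2:**
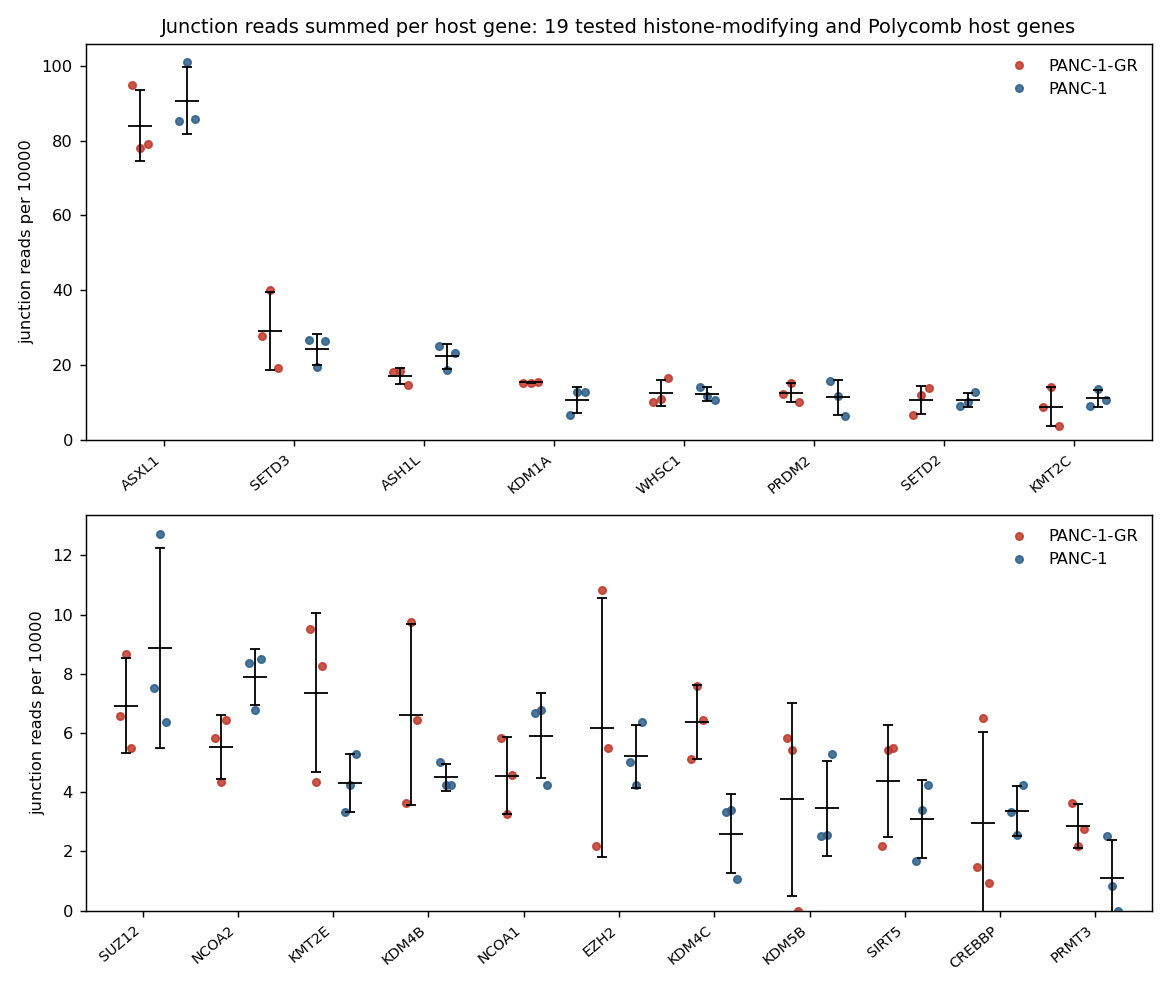
Junction reads per 10000, summed over the junctions of a host gene, are shown for each library of PANC-1-GR (red, left) and PANC-1 (blue, right), with black lines for the mean and SD of 3 libraries (bars that would pass below 0 end at 0). The 19 genes shown are ordered by reads, with a separate axis for the lower 11. ASXL1 averaged 84.0 in PANC-1-GR and 90.7 in PANC-1.

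ASXL1 was the host gene with the fourth most junction reads of all 3348. It had 130, 72 and 86 reads in PANC-1-GR and 102, 119 and 81 in PANC-1, or 84.0 ± 9.50 junction reads per 10000 in PANC-1-GR and 90.7 ± 8.89 in PANC-1 (SD, n = 3 each). The lines overlapped, and the log2 fold change of -0.08 ± 0.14 (SE) did not pass the test. Of its 7 listed junctions, hsa_circ_0001136 held 80.8% of the reads, and it ranked 3 among all circRNAs by reads. This circle lies on chromosome 20 from 30954187 to 30956926 of hg19, on the plus strand, and its span and spliced length of 195 bases match exons 2 to 4 of 13 in the annotated transcript (GENCODE 29, on GRCh38). All 195 bases are coding sequence, a multiple of 3. It had 112, 54 and 67 reads in PANC-1-GR and 78, 103 and 63 in PANC-1, with overlapping lines and a log2 fold change of -0.12 ± 0.17 (SE). The circle is printed because it is the member with the most reads, first the 20 bases before and after the back-splice, and then the whole circle, opened at that point. Capitals mark the first 20 bases of exon 2, into which the end of exon 4 is spliced.
hsa_circ_0001136, junction: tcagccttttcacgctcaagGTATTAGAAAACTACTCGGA
hsa_circ_0001136, whole circle: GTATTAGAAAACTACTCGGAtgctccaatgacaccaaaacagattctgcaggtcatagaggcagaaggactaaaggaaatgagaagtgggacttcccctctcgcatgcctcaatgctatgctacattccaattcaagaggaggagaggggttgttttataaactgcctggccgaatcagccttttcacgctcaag
A second annotated form with 2 exons has the same span and length and differs from the printed sequence at 1 base, and the junction is the same in both. The start of exon 2 was used by 6 of the 7 ASXL1 junctions, which held 587 of the 590 ASXL1 reads. The second circle, hsa_circ_0006922, runs on to position 30959677 and had 10, 11 and 15 reads in PANC-1-GR and 12, 11 and 10 in PANC-1. A longer junction that ends at position 30978970, in the category of sense overlapping and without a circBase ID, had 3, 4 and 3 reads in PANC-1-GR and 5, 3 and 7 in PANC-1, with a log2 fold change of -0.61 ± 0.65 (SE). Within ASXL1, hsa_circ_0001136 made up 79.7 ± 5.79% of the reads in PANC-1-GR and 80.3 ± 5.48% in PANC-1 (SD, n = 3 each), so its share of ASXL1 reads varied more within a line than between the lines. ASXL2, the paralog of ASXL1, had 1 circle with 3, 0 and 1 reads in PANC-1-GR and 2, 1 and 4 in PANC-1.

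**Figure D3:**
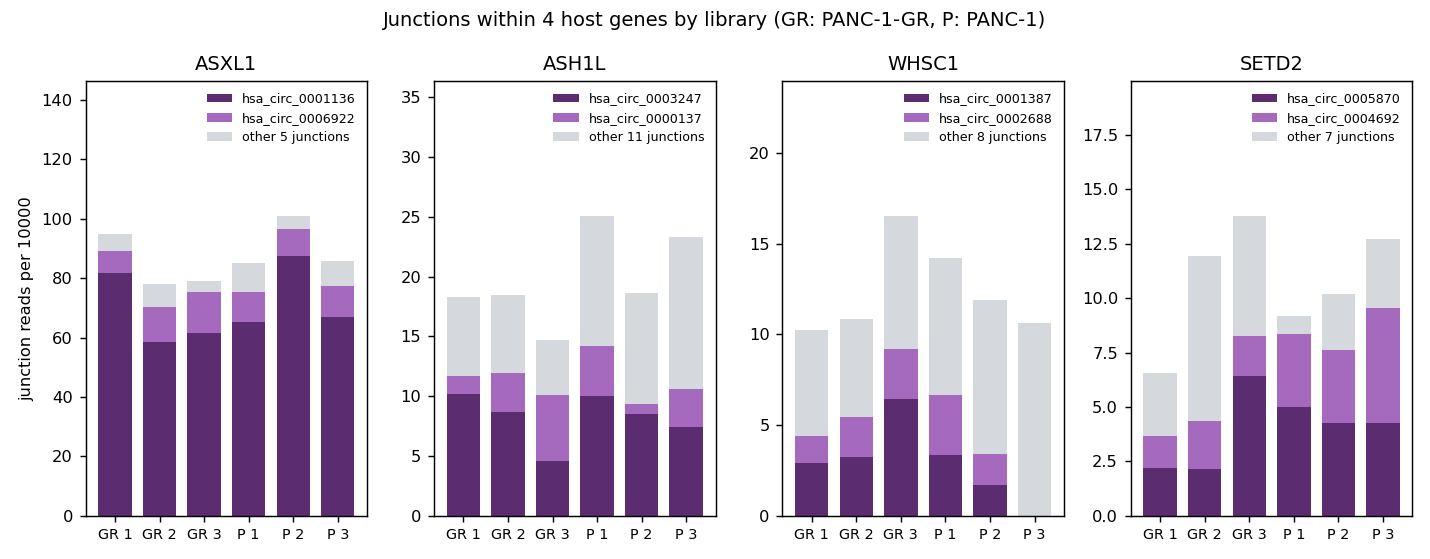
Stacked bars show junction reads per 10000 in each library (GR 1 to 3 for PANC-1-GR, P 1 to 3 for PANC-1) for ASXL1, ASH1L, WHSC1 and SETD2, split into the 2 junctions with the most reads over all libraries and the rest. A single circle makes up most of every ASXL1 bar, while the other 3 genes are split over several junctions.

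All 3 core subunits of PRC2 had circles, which are read as sums because each junction had few reads. SUZ12, the subunit that holds the complex together, had 9, 8 and 6 reads in PANC-1-GR and 9, 15 and 6 in PANC-1 over 7 junctions. The lines overlapped, with a log2 fold change of -0.37 ± 0.44 (SE). EZH2, the methyltransferase itself, had 3, 10 and 6 reads in PANC-1-GR and 6, 5 and 6 in PANC-1 over 6 junctions. Its log2 fold change was 0.18 (standard error 0.55), and 1 PANC-1-GR library lay below and 1 above all PANC-1 libraries. EED, which reads the methyl mark, had 1, 0 and 3 reads in PANC-1-GR and 2, 3 and 0 in PANC-1. EZH1 and JARID2 had no listed junction. Together the PRC2 circles had 14.3 ± 5.03 junction reads per 10000 in PANC-1-GR and 15.5 ± 3.57 in PANC-1 (SD, n = 3 each), and the lines overlapped. In SUZ12, 4 of the 7 junctions start at the same exon 2, at position 30267305 of chromosome 17 in hg19, as a pair of them shows (capitals mark the shared start of exon 2).
hsa_circ_0005804 of SUZ12, end of exon 6 to exon 2: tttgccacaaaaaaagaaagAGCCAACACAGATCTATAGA
hsa_circ_0042963 of SUZ12, end of exon 5 to exon 2: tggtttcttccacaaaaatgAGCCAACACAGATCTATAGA
The first of these had 3, 0 and 0 reads in PANC-1-GR and 3, 3 and 2 in PANC-1, with a log2 fold change of -1.36 ± 1.14 (SE) that did not pass the test. Without PANC-1-GR replicate 1 it was called lower, and the fitted log2 fold change of -4.44 then rests on 0 reads in the other 2 PANC-1-GR libraries and depends on the prior count.

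Methyltransferases of histone H3 lysine 4 and their relatives had 34 circles from 6 genes. They summed to 34.6 ± 4.59 junction reads per 10000 in PANC-1-GR and 41.0 ± 1.60 in PANC-1 (SD, n = 3 each). Each PANC-1-GR library lay below each PANC-1 library, the ratio of summed reads was 0.844 (0.654 to 1.09), and no test was made of the sum. ASH1L held 132 of the 253 reads, and without it the sums overlapped, at 18.3, 19.5 and 14.7 junction reads per 10000 in PANC-1-GR and 14.2, 23.8 and 18.0 in PANC-1. ASH1L, whose product methylates lysine 36 and which was counted in this class, had the most circles of any member gene, 13. It had 25, 17 and 16 reads in PANC-1-GR and 30, 22 and 22 in PANC-1. Its levels of 17.1 ± 2.11 junction reads per 10000 in PANC-1-GR and 22.4 ± 3.31 in PANC-1 (SD, n = 3 each) did not overlap, but the log2 fold change of -0.35 ± 0.29 (SE) did not pass the test. KMT2C, a very large enzyme that acts at enhancers, had 12, 13 and 4 reads in PANC-1-GR and 11, 16 and 10 in PANC-1 over 10 junctions, which overlapped. Its log2 fold change was -0.34 (standard error 0.40). KMT2E, a relative in which methyltransferase activity is in doubt, had 13, 4 and 9 reads in PANC-1-GR and 4, 5 and 5 in PANC-1 over 6 junctions. Its log2 fold change of 0.85 ± 0.52 (SE) did not pass the test, and replicate 2 of PANC-1-GR was at the PANC-1 level. Its circle with the most reads, hsa_circ_0007395, held 15 of the 40 KMT2E reads and went the other way. In a fit with no filter on low counts its log2 fold change was -0.57 ± 0.87 (SE). The circle hsa_circ_0081813 of KMT2E, of exons 3 to 5, had 3, 3 and 0 reads in PANC-1-GR and 0 in all PANC-1 libraries, too few to enter the test. It is named here after its values were seen. KMT2A had 0, 1 and 3 reads in PANC-1-GR and 2, 3 and 2 in PANC-1. KMT2D and SETD7 each had a single circle with 2 reads in 1 PANC-1 library.

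The ASH1L pair with the most reads share the end of exon 5, at position 155408118 of chromosome 1 in hg19 (lower case below). The capitals mark where they differ, the start of exon 4 or of exon 5.
hsa_circ_0003247 of ASH1L, end of exon 5 to exon 4: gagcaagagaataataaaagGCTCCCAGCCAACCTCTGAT
hsa_circ_0000137 of ASH1L, end of exon 5 to exon 5: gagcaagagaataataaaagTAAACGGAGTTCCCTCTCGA
The first had 14, 8 and 5 reads in PANC-1-GR and 12, 10 and 7 in PANC-1, a log2 fold change of -0.15 ± 0.44 (SE). The second, a single exon closed on itself, had 2, 3 and 6 reads in PANC-1-GR and 5, 1 and 3 in PANC-1. Both overlapped between the lines. The ASH1L circle hsa_circ_0008161, which the study chose for qPCR, had 1, 0 and 0 reads in PANC-1-GR and 3, 4 and 0 in PANC-1, too few to enter the test. With no filter on low counts its log2 fold change was -2.41 ± 1.42 (SE), with an adjusted p of 0.696 by edgeR's quasi-likelihood test. The paper lists it as down among its top 10 circRNAs by sequencing. It states that the qRT-PCR trends of those 10 followed the sequencing, but that this circle was not significantly regulated. The paper took it as a negative control in plasma. This circle lies on the minus strand of chromosome 1 from 155377933 to 155385714 of hg19, in the category of sense overlapping. In KMT2C, hsa_circ_0002810 had 4, 0 and 0 reads in PANC-1-GR and 3, 4 and 2 in PANC-1, with a log2 fold change of -1.15 ± 0.99 (SE). Without PANC-1-GR replicate 1 it was called lower, with a fitted value of -4.60 that again rests on 0 reads in the other 2 PANC-1-GR libraries.

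Apart from ASH1L, the genes for methylation of histone H3 lysine 36, a mark of transcribed gene bodies, had 77 reads in PANC-1-GR and 76 in PANC-1. ASH1L, counted above, had 58 and 74. SETD2, which adds the final methyl group, had 9, 11 and 15 reads in PANC-1-GR and 11, 12 and 12 in PANC-1 over 9 junctions, a log2 fold change of 0.00 ± 0.39 (SE). WHSC1, also called NSD2, had 14, 10 and 18 reads in PANC-1-GR and 17, 14 and 10 in PANC-1 over 10 junctions, a log2 fold change of 0.04 ± 0.36 (SE). Both genes overlapped between the lines. Together they had 23.3 ± 6.77 junction reads per 10000 in PANC-1-GR and 22.9 ± 0.754 in PANC-1 (SD, n = 3 each). Of the 10 WHSC1 junctions 6 start at the same acceptor, position 1902353 of chromosome 4 in hg19, and hold 63 of 83 reads. Its top circle, hsa_circ_0001387, had 4, 3 and 7 reads in PANC-1-GR and 4, 2 and 0 in PANC-1, a log2 fold change of 1.15 ± 0.75 (SE). Among the 6 settings that leave out a library it was called higher only without PANC-1 replicate 1, at a log2 fold change of 2.01.

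The leading pair of SETD2 circles share the end of exon 18, at position 47079156 of chromosome 3 in hg19 (lower case), and reach back to exon 16 or exon 13 (capitals).
hsa_circ_0005870 of SETD2, end of exon 18 to exon 16: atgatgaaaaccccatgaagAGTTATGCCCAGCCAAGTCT
hsa_circ_0004692 of SETD2, end of exon 18 to exon 13: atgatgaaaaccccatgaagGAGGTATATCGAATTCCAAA
The longer circle, hsa_circ_0004692, had 2, 2 and 2 reads in PANC-1-GR and 4, 4 and 5 in PANC-1, so that all PANC-1-GR libraries lay below all PANC-1 libraries. Its log2 fold change of -1.11 ± 0.77 (SE) did not pass the test. The shorter, hsa_circ_0005870, had 3, 2 and 7 reads in PANC-1-GR and 6, 5 and 4 in PANC-1, which overlapped, with a log2 fold change of -0.35 ± 0.62 (SE). The split of SETD2 reads between this pair did not pass edgeR's test of each circle against its gene (unadjusted p of 0.540 and 0.645, adjusted p of 0.999). The other 7 SETD2 junctions summed to 4, 7 and 6 reads in PANC-1-GR and 1, 3 and 3 in PANC-1.

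Of the genes for methylation of histone H3 lysine 9, a mark of heterochromatin, PRDM2 had the most reads. It had 17, 14 and 11 in PANC-1-GR and 19, 14 and 6 in PANC-1, a log2 fold change of 0.11 ± 0.36 (SE) with overlapping lines. Its leading circle, of exons 7 and 8, had 7, 4 and 7 reads in PANC-1-GR and 6, 7 and 5 in PANC-1. A further circle, hsa_circ_0010029, is the large exon 8 alone, 4414 bases, and had 3, 4 and 3 reads in PANC-1-GR and 2, 5 and 1 in PANC-1. EHMT1, the partner of G9a, had 1, 2 and 2 reads in PANC-1-GR and 8, 7 and 2 in PANC-1 over 3 circles. The lines met at 2 reads and EHMT1 did not pass the filter on low counts, with a ratio of summed reads of 0.289 (0.0833 to 0.815). EHMT1 is named here after its values were seen. When no filter was applied it was called lower, with a log2 fold change of -1.66 ± 0.81 (SE) and an adjusted p of 0.774 by edgeR's quasi-likelihood test. SETDB1 had 4, 1 and 1 reads in PANC-1-GR and 0, 0 and 2 in PANC-1.

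SUV420H1, which methylates histone H4 at lysine 20, had the most one-sided counts among genes with reads in both lines. It had 5, 1 and 3 reads in PANC-1-GR and 0, 0 and 1 in PANC-1 over 3 circles on chromosome 11. As levels the lines did not overlap, but only just, with 1.08 junction reads per 10000 in the lowest PANC-1-GR library and 1.06 in the highest PANC-1 library. The ratio of summed reads was 8.83, with a wide interval from 1.22 to 387. It did not pass the filter on low counts. Without that filter it was called higher, at 2.72 on the log2 scale (standard error 1.33) with an adjusted p of 0.774 by edgeR's quasi-likelihood test. DOT1L, which methylates H3 lysine 79, had 2, 0 and 4 reads in PANC-1-GR and 2, 1 and 0 in PANC-1. Of the arginine methyltransferases, PRMT3, a mostly cytosolic enzyme, had 5, 2 and 3 reads in PANC-1-GR and 3, 1 and 0 in PANC-1, with a log2 fold change of 1.24 ± 1.01 (SE) that did not pass the test. PRMT5 and PRMT2 had 8 reads or fewer each.

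Lysine demethylases had 28 circles from 9 genes, and as a class they had more reads in PANC-1-GR. The sum was 35.8, 44.5 and 34.0 junction reads per 10000 in PANC-1-GR and 25.1, 25.5 and 30.8 in PANC-1. Every PANC-1-GR library lay above every PANC-1 library, with means of 38.1 ± 5.60 in PANC-1-GR and 27.1 ± 3.18 in PANC-1 (SD, n = 3 each). The ratio of the summed reads was 1.40 (1.06 to 1.86). Without KDM1A, which held 87 of the 216 reads, the sums just overlapped, at 20.5, 29.3 and 18.4 junction reads per 10000 in PANC-1-GR and 18.4, 12.7 and 18.0 in PANC-1. This is a description with no test, since the members were chosen with results known. Among other classes without overlap were the H3 lysine 4 methyltransferases and the nuclear receptor coactivators, both lower in PANC-1-GR. The lines also did not overlap for 10.6% of all tested host genes, a share of single genes and not of class sums, which include untested genes. No class interval is adjusted for having looked at the 13 classes plotted, so the separation of a class is weak evidence of a shift. Neither a demethylase gene nor a demethylase circle was called.

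KDM1A, or LSD1, which takes methyl groups off lysine 4 of histone H3, had the most reads of the class. It had 21, 14 and 17 reads in PANC-1-GR and 8, 15 and 12 in PANC-1. Its levels were 15.4 ± 0.218 junction reads per 10000 in PANC-1-GR and 10.7 ± 3.49 in PANC-1 (SD, n = 3 each) and did not overlap, but the log2 fold change of 0.56 ± 0.35 (SE) did not pass the test. KDM4C, which acts on lysines 9 and 36 of histone H3, had the smallest p of all tested member genes. It had 7, 7 and 7 reads in PANC-1-GR and 4, 4 and 1 in PANC-1, or 6.38 ± 1.24 junction reads per 10000 in PANC-1-GR and 2.60 ± 1.33 in PANC-1 (SD, n = 3 each), without overlap. The log2 fold change of KDM4C was 1.21 (standard error 0.64), with an unadjusted p of 0.0599 and an adjusted p of 0.872 by edgeR's quasi-likelihood test. KDM4B, its paralog, had 5, 9 and 7 reads in PANC-1-GR and 6, 5 and 4 in PANC-1, which overlapped, and a log2 fold change of 0.50 ± 0.55 (SE). KDM5B, which also acts on lysine 4, had 8, 5 and 0 reads in PANC-1-GR and 3, 3 and 5 in PANC-1. KDM2A ran the other way in its sum, with 3, 1 and 1 reads in PANC-1-GR and 6, 1 and 1 in PANC-1, and KDM1B had 7 reads in PANC-1-GR and 8 in PANC-1. KDM6A, KDM3B and KDM6B had 2 to 7 reads each.

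The leading demethylase circles were coding circles of few exons. They are shown at their back-splice, with the first exon of the circle in capitals, because they had the smallest p values among tested members with higher levels in PANC-1-GR.
hsa_circ_0009061 of KDM1A, end of exon 3 to exon 2: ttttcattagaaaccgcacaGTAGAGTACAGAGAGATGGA
hsa_circ_0001839 of KDM4C, end of exon 8 to exon 6: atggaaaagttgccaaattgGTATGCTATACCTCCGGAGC
hsa_circ_0002926 of KDM4B, end of exon 9 to exon 6: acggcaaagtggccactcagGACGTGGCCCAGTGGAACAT
The KDM1A circle lies on chromosome 1 from 23356962 to 23377013 of hg19 and had 9, 8 and 14 reads in PANC-1-GR and 5, 9 and 4 in PANC-1, with a log2 fold change of 0.74 ± 0.47 (SE). The KDM4C circle lies on chromosome 9 from 6880012 to 6893232 and had 7, 6 and 4 reads in PANC-1-GR and 4, 2 and 1 in PANC-1. As levels its lines did not overlap, and its log2 fold change of 1.20 ± 0.69 (SE) did not pass the test. The KDM4B circle, on chromosome 19 from 5047487 to 5082515, had 2, 7 and 4 reads in PANC-1-GR and 4, 1 and 0 in PANC-1, with overlap and a log2 fold change of 1.31 ± 0.80 (SE). Without PANC-1 replicate 1 the KDM4C and KDM4B circles were called higher, at log2 fold changes of 1.75 and 2.77, and the KDM4B circle also without PANC-1-GR replicate 1, at 1.76. A second KDM1A circle, hsa_circ_0003889, had 4, 3 and 3 reads in PANC-1-GR and 1, 2 and 2 in PANC-1, without overlap, and a log2 fold change of 0.91 ± 0.88 (SE).

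**Figure D4:**
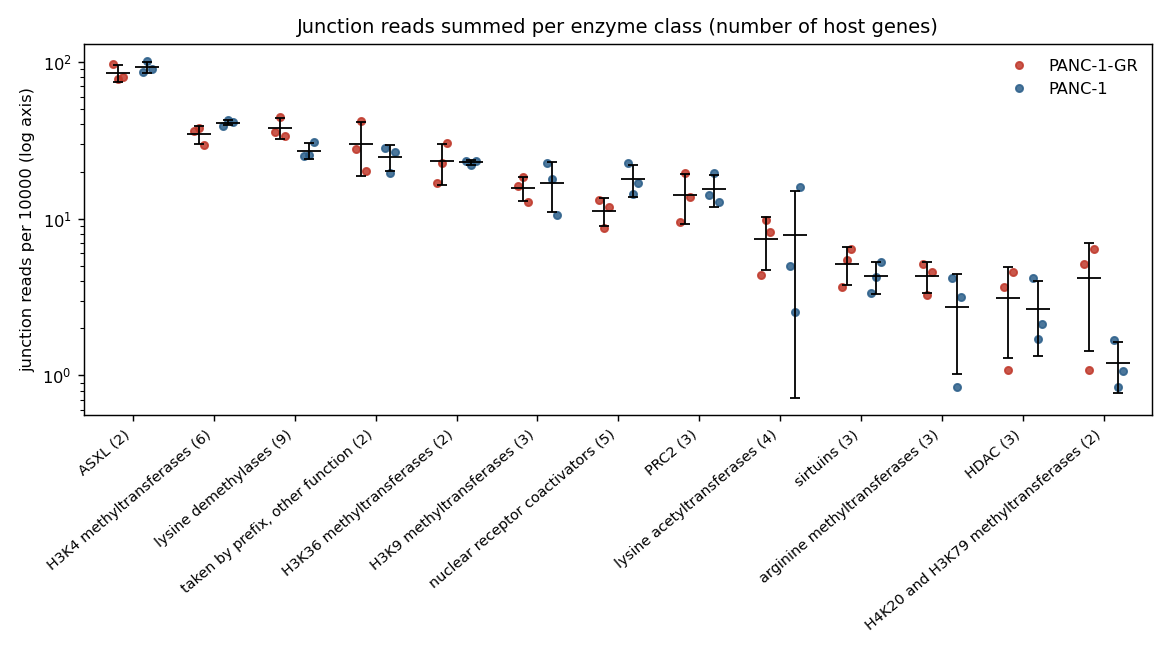
Junction reads per 10000 are summed for 13 enzyme classes (number of host genes in parentheses) for each library of PANC-1-GR (red, left) and PANC-1 (blue, right) on a log axis, with black lines for mean and SD over 3 libraries. Demethylases lie higher in PANC-1-GR, at 38.1 against 27.1 in PANC-1, while nuclear receptor coactivators lie lower, at 11.3 against 18.0 in PANC-1.

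Circles of the nuclear receptor coactivators, which bring acetyltransferases to hormone receptors, had lower sums in PANC-1-GR. Their 12 circles from 5 genes had 13.1, 8.67 and 11.9 junction reads per 10000 in PANC-1-GR and 22.6, 14.4 and 17.0 in PANC-1, without overlap. The ratio of summed reads was 0.638 (0.415 to 0.971), again as a description with no test. Without NCOA2 the lines only just did not overlap. The sums were then 7.31, 4.34 and 5.51 junction reads per 10000 in PANC-1-GR and 14.2, 7.64 and 8.48 in PANC-1. NCOA2 had 8, 4 and 7 reads in PANC-1-GR and 10, 8 and 8 in PANC-1. Its levels did not overlap, with 5.54 ± 1.08 junction reads per 10000 in PANC-1-GR and 7.88 ± 0.945 in PANC-1 (SD, n = 3 each), but the log2 fold change of -0.45 ± 0.48 (SE) did not pass the test. Most of these reads came from 1 circle of exons 3 and 4, with 7, 4 and 6 reads in PANC-1-GR and 9, 6 and 8 in PANC-1. As levels the lines overlapped for this circle, unlike for the gene. NCOA1 had 8, 3 and 5 reads in PANC-1-GR and 8, 8 and 4 in PANC-1, with overlap and a log2 fold change of -0.32 ± 0.55 (SE). NCOA3 had 0, 1 and 0 reads in PANC-1-GR and 3, 1 and 3 in PANC-1, a ratio of summed reads of 0.140 (0.00311 to 1.09). NCOA6 and NCOA4 had 8 and 2 reads over all libraries.

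The acetyltransferases themselves had equal sums, with 24 reads in PANC-1-GR and 24 in PANC-1. CREBBP, a coactivator that acetylates histones, had a single circle made of its second exon, with 2, 6 and 1 reads in PANC-1-GR and 4, 3 and 4 in PANC-1 and a log2 fold change of -0.26 ± 0.77 (SE) for the gene. Its close relative EP300 had 1, 2 and 4 reads in PANC-1-GR and 2, 0 and 5 in PANC-1 over 4 circles. KAT6B had 2, 1 and 4 reads in PANC-1-GR and 0, 0 and 4 in PANC-1, and KAT6A had 3 reads in all. Circles of histone deacetylases were scarce. HDAC9 had 1, 1 and 1 reads in PANC-1-GR and 5, 0 and 2 in PANC-1, and HDAC1 had 4 reads in PANC-1-GR and 2 in PANC-1. HDAC2 had 4 reads in PANC-1-GR and 0 in PANC-1, which is near the 3 reads that a count of 0 allows. Of the sirtuins, SIRT5, which works in mitochondria and removes succinyl groups, had 3, 5 and 6 reads in PANC-1-GR and 2, 4 and 4 in PANC-1, a log2 fold change of 0.48 ± 0.70 (SE). SIRT1 and SIRT3 had 4 and 3 reads in all.

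SETD3 had the second most reads of all members but is a methyltransferase of a histidine in actin rather than an established histone enzyme. Its only listed circle, hsa_circ_0000567, joins exons 2 to 6 and lies on chromosome 14 from 99924616 to 99932150 of hg19. It had 38, 37 and 21 reads in PANC-1-GR and 32, 23 and 25 in PANC-1, which overlapped. Summed as a gene its level was 29.1 ± 10.5 junction reads per 10000 in PANC-1-GR and 24.3 ± 4.11 in PANC-1 (SD, n = 3 each), with a log2 fold change of 0.26 ± 0.25 (SE). NSDHL, an enzyme of cholesterol synthesis, had 0, 2 and 1 reads in PANC-1-GR and 2, 0 and 0 in PANC-1.

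Circles of the same host gene could also differ from one another in how they divided its reads. Of the members, 13 circles of 6 genes (ASXL1, SETD2, KMT2C, ASH1L, PRDM2 and KDM1A) could be tested against the other tested circles of their gene with edgeR. None had an unadjusted p of at most 0.05, where 1.76% of all 455 circles tested this way did, and the smallest adjusted p was 0.999. The ASXL1 junction that ends at position 30978970 had the smallest p, at -0.49 log2 units from the average of its gene, followed by hsa_circ_0004692 of SETD2 at -0.45 and hsa_circ_0006922 of ASXL1 at 0.21.

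Splice sites were reused by many circles of these genes, and the same count was not made for other host genes. In 29 genes with at least 2 listed circles, 98 of 139 circles shared their start or their end with another circle of the gene, 72 of them a start (acceptor) and 53 an end (donor). The members that share an end share sequence and are not independent of each other.

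The structure of the members is set beside that of the other listed circRNAs as a description, with no test. The exonic category took 87.4% of members and 85.0% of the others, and a circBase ID was given for 69.8% of members and 59.5% of the others. There were 3.24 circles per member gene and 2.30 per other gene. The median spliced length of exonic circles was 502 bases in members and 479 in the others. Of 139 exonic members, 137 matched a run of annotated exons, with a median of 3 exons in both sets. Exon 2 was the first exon of 24.1% of matched members and 33.6% of the others, and these circles held 55.8% of the reads of matched members and 45.4% of those of the matched others. Without the 2 matched ASXL1 circles the share of matched members' reads was 36.3%, below that of the others. No matched member began with exon 1 or ended in the last exon. This was rare in the others too, where 10 of 6218 began with exon 1 and 7 ended in the last exon. All exons were coding in 77.4% of matched members and 81.3% of the others. The intron before the circle had a median of 6811 bases in members and 8205 in the others.

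**Figure D5:**
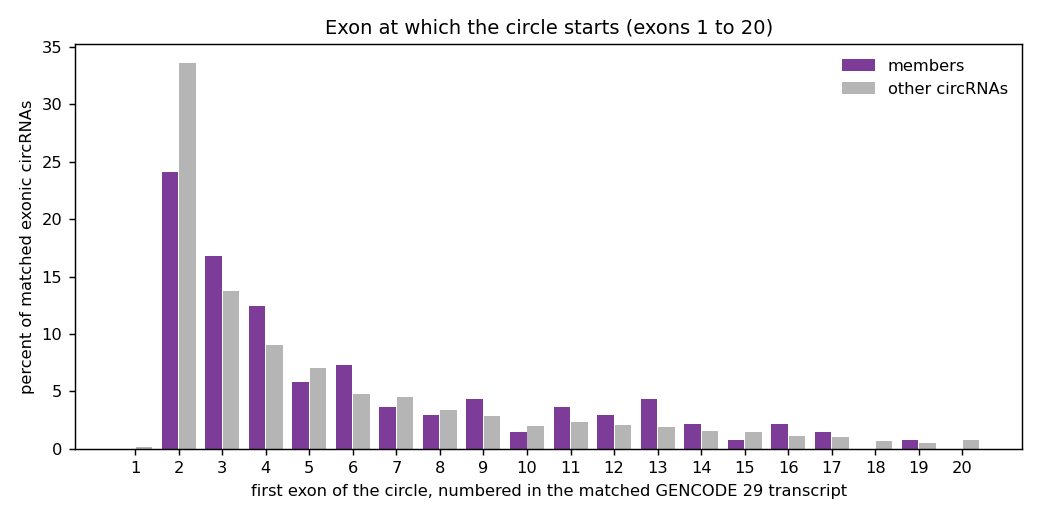
The bars give the percent of matched exonic circRNAs that start at each exon number (exons 1 to 20 of the matched transcript), members in purple and other circRNAs in grey. Exon 2 is the most frequent start in both sets, at 24.1% of members and 33.6% of the others.

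Partners of these enzymes had circles as well, and none of them was called. Of 116 further genes in 5 lists (Polycomb partners, H3 lysine 4 methyltransferase partners, acetyltransferase partners, deacetylase corepressors and other histone enzymes), 40 had listed junctions and 12 entered the test. None of the 12 was called in the edgeR quasi-likelihood test, where 3.66% of all tested genes were, and none had an unadjusted p of at most 0.05, against 5.76% of all tested genes. The smallest adjusted p was 0.938. PHC3, a subunit of Polycomb repressive complex 1, had the most reads, 36, 30 and 31 in PANC-1-GR and 26, 31 and 28 in PANC-1 over 16 circles, with a log2 fold change of 0.19 ± 0.25 (SE). YAF2, a partner of the same complex, had the smallest p, with 10, 3 and 1 reads in PANC-1-GR and 7, 8 and 10 in PANC-1 and a log2 fold change of -0.85 ± 0.54 (SE) that did not pass the test.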

How the data were processed

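Back-splice junction reads per circRNA and library were deposited as counts by the authors, with host gene, circBase ID, category and hg19 coordinates. The deposited table also holds log2 CPM values made by the authors with edgeR, which were not used in a test. CASAVA 1.8, BWA and hg19 are named in the processing notes of the submitters. The sources used here do not name the junction caller. Circles without 2 reads in any library are not listed in the table. Depth was 9222 to 13689 junction reads per library.

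Counts were compared with edgeR 4.0.16 in R 4.3.3 (two-sided quasi-likelihood test, TMM factors, prior count 0.125, Benjamini-Hochberg over all features tested), once per circRNA and once summed per host gene, and junction choice with diffSpliceDGE. The scripts were tested on simulated data. Groups came from the sample titles. Members, gene lists and named genes were chosen with earlier results of these data known. Named were the members with the most reads or the smallest p, the leading gene of each class, genes with at least 5 junctions, and the ASH1L circle that the study took to qPCR. Alternatives were RLE factors, library totals, no filter, at least 10 reads in 3 libraries, DESeq2 1.42.0, the edgeR exact test, limma-voom (limma 3.58.1), a prior count of 2, a replicate block, and each library left out. Exons were matched to GENCODE 29 (GRCh38) by span and spliced length, and no coordinates were carried between builds. Sequences come from GENCODE 29 transcripts. Reads carry no molecular identifiers here. The values of 1 tested gene are not reported here, though the counts over all members include it.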

Additional observations from a re-analysis of the deposited data

How the results depend on the processing

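The counts of members called were 0 under RLE factors, library totals, at least 10 reads in 3 libraries, DESeq2, the edgeR exact test, limma-voom, a prior count of 2 and the replicate block. Only 4 member circRNAs and 8 member genes entered at 10 reads. Over these settings 0.929% to 2.79% of all tested circRNAs were called higher and 0.516% to 2.03% lower. Of all tested genes 0.37% to 2.01% were called higher and 0.915% to 2.2% lower. With shares this low, 0 calls among so few members say little about them. With no filter on low counts 1 circRNA was called higher and had an unadjusted p of at most 0.05 (hsa_circ_0081813 of KMT2E, with 3, 3 and 0 reads in PANC-1-GR and 0 in PANC-1). That was 1 of 159 members, where 0.93% of all 7746 circRNAs were called higher and 0.671% lower. With no filter 1 host gene was called higher (SUV420H1) and 1 lower (EHMT1), which are the 2 genes with an unadjusted p of at most 0.05. These were 2 of 49 member genes. Of all 3348 host genes 1.14% were called higher and 1.31% lower in that setting, and 3.17% had such a p. Over the 6 settings that leave out a library, the number of circRNAs called higher ran from 0 to 3, called lower from 0 to 2, and with an unadjusted p of at most 0.05 from 0 to 3. The highest were 3 of 26 called higher without PANC-1 replicate 1, where 3.10% of all 969 tested circRNAs were, and 2 of 26 called lower without PANC-1-GR replicate 1, where 2.48% were, and 4 of the 6 settings gave no member call. No host gene was called in those 6. The circles concerned were those of KDM4B, WHSC1 and KDM4C without PANC-1 replicate 1, and those of KDM4B (higher), SUZ12 and KMT2C (lower) without PANC-1-GR replicate 1. Over 35 named log2 fold changes and 502 alternative values, 26 changed sign and 6 passed the threshold. Outside the settings that leave out a library, the signs that turned were those of the PRDM2 circle of exons 7 and 8 with no filter (0.0066), of WHSC1 at 10 reads (-0.034), of EZH2 in limma-voom (-0.087), and of SETD2 with library totals (-0.018), at 10 reads (-0.066) and in limma-voom (-0.055). With the replicate block SETD2 came to -0.00104, and the block gave 0 member calls and 28 of 969 circRNAs called in all, against 41. Same-numbered libraries did not deviate together (r of 0.0212, 0.00696 and 0.0102 over circRNAs), and only 1 of 3 PANC-1-GR libraries correlated best with its own number.

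With a library left out, the log2 fold change ran from -0.24 to 0.018 for ASXL1, from -0.20 to 0.14 for WHSC1, from -0.15 to 0.40 for PRDM2, from -0.23 to 0.26 for SETD2, from -0.74 to 0.013 for KMT2C, from -1.34 to 0.14 for CREBBP and from -0.43 to 0.60 for EZH2. For circles it ran from -0.32 to 0.038 for hsa_circ_0001136 of ASXL1, from -0.13 to 0.34 for hsa_circ_0006922, from -0.025 to 0.43 for SETD3, from -0.46 to 0.11 for hsa_circ_0003247 of ASH1L and from -0.20 to 0.065 for the PRDM2 circle. The causes were not tested. Class sums without their leading gene were added after seeing the data. Of these, the sums of the coactivators and of the lysine 9 methyltransferases did not overlap between the lines, and those of the other classes so treated did. The log2 ratio of all members summed lay between -0.04 and 0.06 over its alternatives, within the spread of 0.06 between libraries. Depth limits what can be seen, since 133 of 159 circRNAs and 29 of 49 genes did not enter the test, and an absent call does not show equal levels.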
